A study of Mus musculus with 12 samples.

Results

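This comparison sets 3 libraries of mouse CD4+ T cells cultured toward an induced regulatory fate (iTreg WT) against 1 library of freshly sorted naive CD4+ T cells, 4 of the 12 samples of the study. A locus was compared when its level reached 2 FPKM (fragments scaled to transcript length and to the mapped reads of the library) in the naive library or in the iTreg mean and its length reached 300 bp, which held for 9639 of 23700 loci. The difference is log2(FPKM + 0.5) of an iTreg library minus that of the naive library, and it was read only where all 3 iTreg libraries gave the same direction. With 1 naive library there is no test between the groups, and no p-value is given. All cells came from spleen and lymph nodes of C57BL/6J mice with the wild-type genotype. Before culture they were sorted by flow cytometry as CD44- and CD25- cells, with a further surface marker of the naive state. The naive cells were used fresh. The iTreg cells spent 3 days on plate-bound antibodies to CD3 and CD28 (10 µg/ml each). IL-2 (100 IU/ml) and human TGF-β1 (5 ng/ml) were present. Time since the sort, time in culture, stimulation, IL-2 and TGF-β1 therefore cannot be told apart here. The labels do not say whether the 3 iTreg libraries are separate mice, separate cultures or repeat preparations, so their spread may be technical. Single wild-type libraries of Th1, Th2 and Th17 cultures, grown for 3 days on the same antibodies (IL-12 with anti-IL-4; IL-4 with anti-IFN-γ; IL-6 and TGF-β1 with both blocking antibodies), are given only as levels beside the comparison.

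Naive CD4+ T cells recirculate through lymphoid organs in a quiescent state that is held by IL-7 signals and by factors such as KLF2 and FOXO1. Stimulation through the T cell receptor and CD28 starts growth and division. When TGF-β and IL-2 are present, SMAD and STAT5 proteins act at the Foxp3 locus, and the cells can take up FOXP3, the lineage factor of regulatory T cells, which restrain immune responses.

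Several features of the libraries went with the groups. The depth implied by the deposited intervals was similar, 18.5 M reads in the naive library and 18.2 to 19.1 M in the iTreg libraries. Sex-linked transcripts differed completely: Xist, the RNA that coats the inactive X chromosome, was at 48.7 FPKM in the naive library and at most 0.00949 FPKM in the iTreg libraries. The Y-linked Eif2s3y, Ddx3y, Kdm5d and Uty were listed at 0 in the naive library, and Eif2s3y was at 68.9, 55.6 and 62.6 FPKM in the iTreg libraries. Sex of the donor mice and culture can therefore not be told apart for any gene in this comparison, and X-linked genes, which include Foxp3, are the most directly concerned. Of the 305 compared loci on X and Y, 28 were at least 2-fold higher and 9 at least 2-fold lower in iTreg. Markers of other cells were also uneven. The summed level of 14 B cell markers was 1.69 FPKM in the naive library and 84.5, 13.8 and 46.2 FPKM in iTreg WT 1, 2 and 3, and that of 15 markers of antigen-presenting cells, mostly dendritic cell and MHC class II genes, was 16.5 against 359, 114 and 204 FPKM. All 6 compared B cell markers and all 7 compared MHC class II genes were higher in iTreg, while Ms4a1, Pax5, Blnk and Ebf1 were listed at 0 in the naive library. For the 6 B cell markers and for 6 of the 7 others the naive library was under 2 FPKM, so that they had to differ. The other 8 listed markers of antigen-presenting cells were not compared. The same 15 markers summed to 176.5, 350.9 and 38.9 FPKM in Th1, Th2 and Th17. H2-Ab1 was at 97.2, 116.8 and 16.3 FPKM there, but H2-Aa at 0.218, 0.322 and 0.0594 FPKM. Whether the iTreg libraries held B cells or antigen-presenting cells was not tested, nor was the part of such cells in the results below. The naive library also stood apart from all 9 cultured RNA libraries at some loci, among them Rps29, Rpl34, Rpl29, Rpl7a and Ndufs5, given below. These 9 include 3 libraries of Bach2-deficient iTreg cells, which were not part of the comparison. Of the predicted loci, Gm20594, Gm6525 and 4930503E24Rik were listed at 0 in the naive library and had at least 10 FPKM in each of the others. LOC547349 was at 29.6 FPKM in the naive library and near 0 elsewhere. Summed myeloid markers were at 6.15 FPKM in the naive and 10.8 to 11 FPKM in the iTreg libraries, with Lyz1, S100a8 and Elane listed at 0 in all 4. The 11 matched markers of CD8, NK and γδ T cells summed to 25.1 FPKM against 29.6 to 32.1 FPKM, and Cd8a was at 0.102 against at most 0.1 FPKM. The defining genes of the cells were present throughout, with Cd4 at 233 FPKM in the naive library and 145, 139 and 156 FPKM in iTreg, and Cd3e at 196 against 223, 226 and 223 FPKM.

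**Figure D1:**
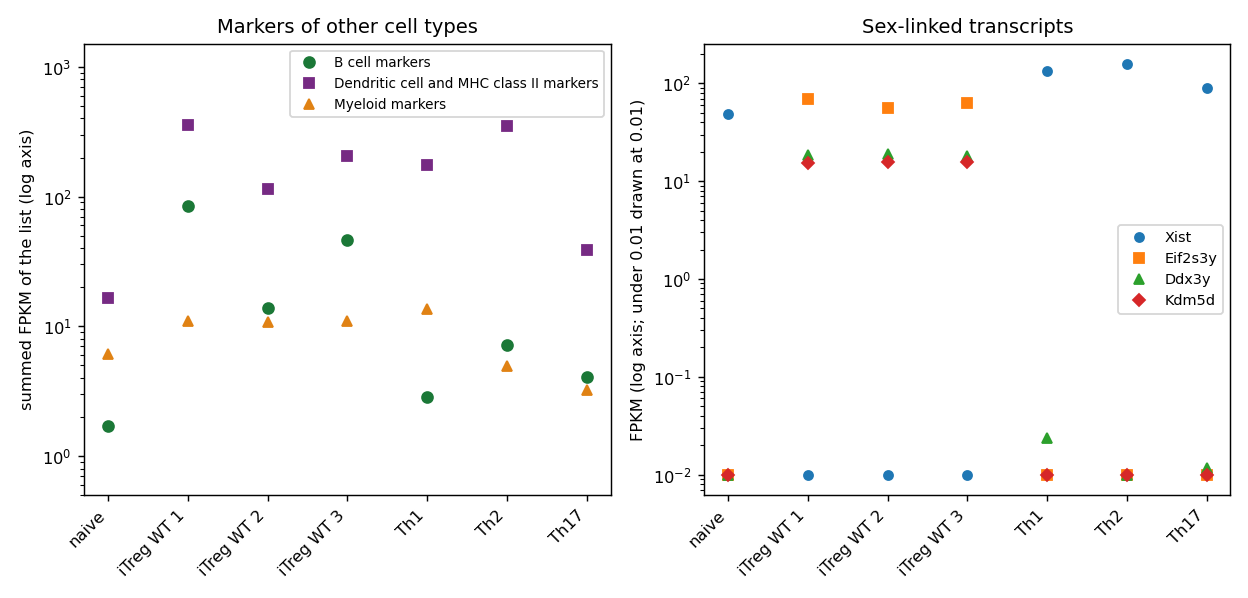
Summed level of 3 marker lists (left, FPKM, log axis) and level of 4 sex-linked transcripts (right, FPKM, log axis) in the naive, the 3 iTreg WT and the Th1, Th2 and Th17 libraries. B cell markers ran from 13.8 to 84.5 FPKM in iTreg against 1.69 FPKM in the naive library, and Xist and the Y-linked genes split the iTreg libraries from all the others drawn.

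Most expressed loci were higher in iTreg. All 3 iTreg libraries were above the naive library at 6415 loci (66.6%) and below it at 2451 (25.4%), 92% in either direction. A locus is called here when the difference reached 1 on the log2 scale, that is 2-fold on FPKM + 0.5, in each of the 3 libraries: 1269 loci were called higher (13.2%) and 296 lower (3.07%), 1565 in all (16.2%). At 4-fold the shares were 3.57% and 0.934%. The direction split rests on the scaling. The median difference over all compared loci was 0.30, and with that median set to 0 there were 780 higher and 481 lower, 61.9% of calls higher against 81.1% as deposited. Quantile normalization gave 691 and 548 (55.8% higher) and scaling to equal sums over the loci above the length limit gave 872 and 427 (67.1% higher). Differences near the median should be read relative to this shift of 0.30. These shares, 13.2% higher and 3.07% lower, are the background for the gene lists that follow. Of the loci called higher, 514 had under 2 FPKM in the naive library and were compared only through their iTreg level, so that they had to differ. Likewise 104 of those called lower were compared only through the naive library. The spread among the iTreg libraries was small beside these differences, with a median SD of 0.063 on the log2 scale and 95% of compared loci under 0.211. Of the 45 loci with an SD above 0.5, iTreg WT 2 was the lowest at 32. Just inside the call was Mcm7, a subunit of the replicative helicase, with 11.6 against 23.7, 24.6 and 25.3 FPKM, and just outside it was the ribosomal protein gene Rps25, with 228 against 477, 459 and 455 FPKM.

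**Figure D2:**
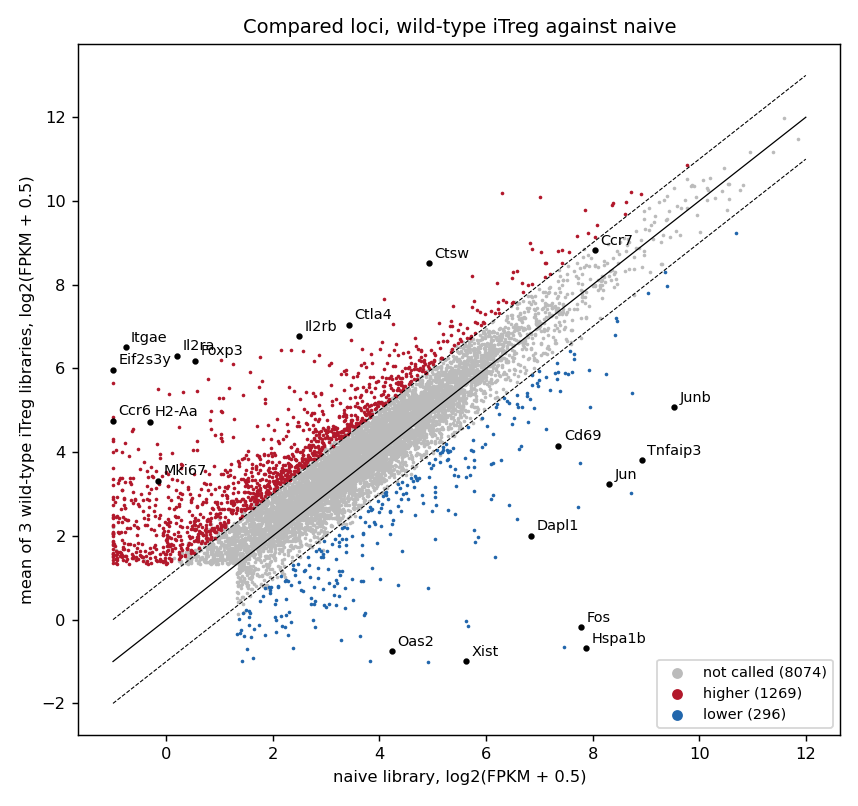
Level of each of the 9639 compared loci in the naive library (x) and as the mean of the 3 iTreg WT libraries (y), both as log2(FPKM + 0.5), with equality as a solid line and 2-fold as dashed lines. The 1269 loci called higher lie above the band with Itgae, Il2ra and Foxp3 far out at the left, and the 296 called lower include Fos, Hspa1b and Jun at the lower right.

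Genes of the regulatory T cell programme made up some of the farthest rises. Of 37 listed genes 28 were compared, 20 were called higher and 0 lower, with a median difference of 2.51 against 0.30 over all compared loci. The naive library was under 2 FPKM for 12 of the 20, which therefore had to differ. The list median over all 37 genes was 1.28 FPKM in the naive library and 15.8, 17.3 and 19.1 FPKM in iTreg. It was as high in the helper cultures, at 17.3, 21.4 and 15.1 FPKM in Th1, Th2 and Th17. The list was chosen with results of these data known.

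Foxp3, on the X chromosome (mm9, chrX:7156802-7172369), was at 0.952 FPKM in the naive library and 69.6, 66.7 and 81.1 FPKM in iTreg WT 1, 2 and 3. The groups did not overlap, and the difference was 5.65 ± 0.147 (SD over the 3 iTreg libraries). In bulk RNA a smaller share of cells with the transcript cannot be told apart from less of it in each cell. The helper cultures had 0.308, 0.226 and 1.35 FPKM in Th1, Th2 and Th17, so of the cultured wild-type libraries only the 3 iTreg ones were above 2 FPKM. Ikzf4, which encodes Eos, a FOXP3 partner, was at 1.6 FPKM in the naive library and 38.5, 40.2 and 37.8 FPKM in iTreg WT 1, 2 and 3. Ikzf2, which encodes Helios, was at 0.397 against 0.271, 0.245 and 0.405 FPKM and stayed below the level needed for comparison in both groups.

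Itgae, the αE integrin chain also known as CD103 (mm9, chr11:72904097-72960951), was at 0.0894 FPKM in the naive library and 91.1, 108 and 71.2 FPKM in iTreg WT 1, 2 and 3. The difference was 7.25 ± 0.304. By the smallest of the 3 differences, 6.93, Itgae was the largest rise among the ranked loci of at least 10 FPKM, with predicted genes left out. In the helper cultures it was at 0.17, 0.347 and 5.7 FPKM. Il2ra, the IL-2 receptor α chain also known as CD25 (mm9, chr2:11564419-11614821), was at 0.647 FPKM in the naive library and 72.2, 68 and 95.5 FPKM in iTreg WT 1, 2 and 3, a difference of 6.09 ± 0.259. Cells carrying CD25 were sorted away before culture, so its naive level is not independent of the gate. Unlike Foxp3 and Itgae, Il2ra was higher still in Th1, Th2 and Th17, at 232, 361 and 138 FPKM.

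Receptors of the programme were raised in all 3 iTreg libraries. Ctla4, an inhibitory receptor that competes for CD80 and CD86, was at 10.2 FPKM in the naive library and 125, 118 and 151 FPKM in iTreg WT 1, 2 and 3. The ectonucleotidase gene Nt5e (CD73) was at 4.59 against 82.8, 87.7 and 89.1 FPKM, while its partner Entpd1 (CD39) stayed under 2 FPKM, at 0.00728 against 1.79, 1.44 and 1.86. Of the TNF receptor family, Tnfrsf4 (OX40) went from 6.96 to 41.7 ± 6.4 (SD, n = 3), Tnfrsf1b from 7.98 to 48.3 ± 1.01 and Tnfrsf18 (GITR) from 26.4 to 72.8 ± 10.7 FPKM. The chemokine receptor genes Ccr8 and Ccr4 went from 1.48 to 38.6 ± 0.949 and from 0.282 to 11.2 ± 0.907 FPKM. Nrp1, a semaphorin receptor, went from 0.381 to 17.9 ± 1.07 FPKM, and Capg, an actin-capping protein gene, from 16.6 to 201 ± 6.14 FPKM. Several of these receptors were higher still in Th1, Th2 and Th17: Ctla4 (192, 233 and 305 FPKM), Tnfrsf4 (379, 536 and 119 FPKM) and Ccr4 (29.1, 105 and 19.1 FPKM). Nt5e was at 13.7, 2.8 and 312 FPKM there, Ccr8 at 4.9, 53.2 and 34.7 FPKM, and Tnfrsf1b at 22.7, 17 and 31.1 FPKM.

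Other members of the programme stayed low. The suppressive cytokine gene Il10 was at 0.0531 FPKM in the naive library and at 0.0287, 0 and 0.056 FPKM in iTreg, and granzyme B (Gzmb) at 0.362 against 0.0783, 0.0532 and 0 FPKM. Tigit and Prdm1, the gene of BLIMP-1, were under 1 FPKM in all 4 libraries. Ebi3, a subunit of IL-35 and IL-27, was called higher at 0.0303 against 2.49, 1.43 and 3.79 FPKM. Swap70 followed the order of the B cell markers over the iTreg libraries, at 6.21, 1.76 and 3.97 FPKM, and was not called.

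**Figure D3:**
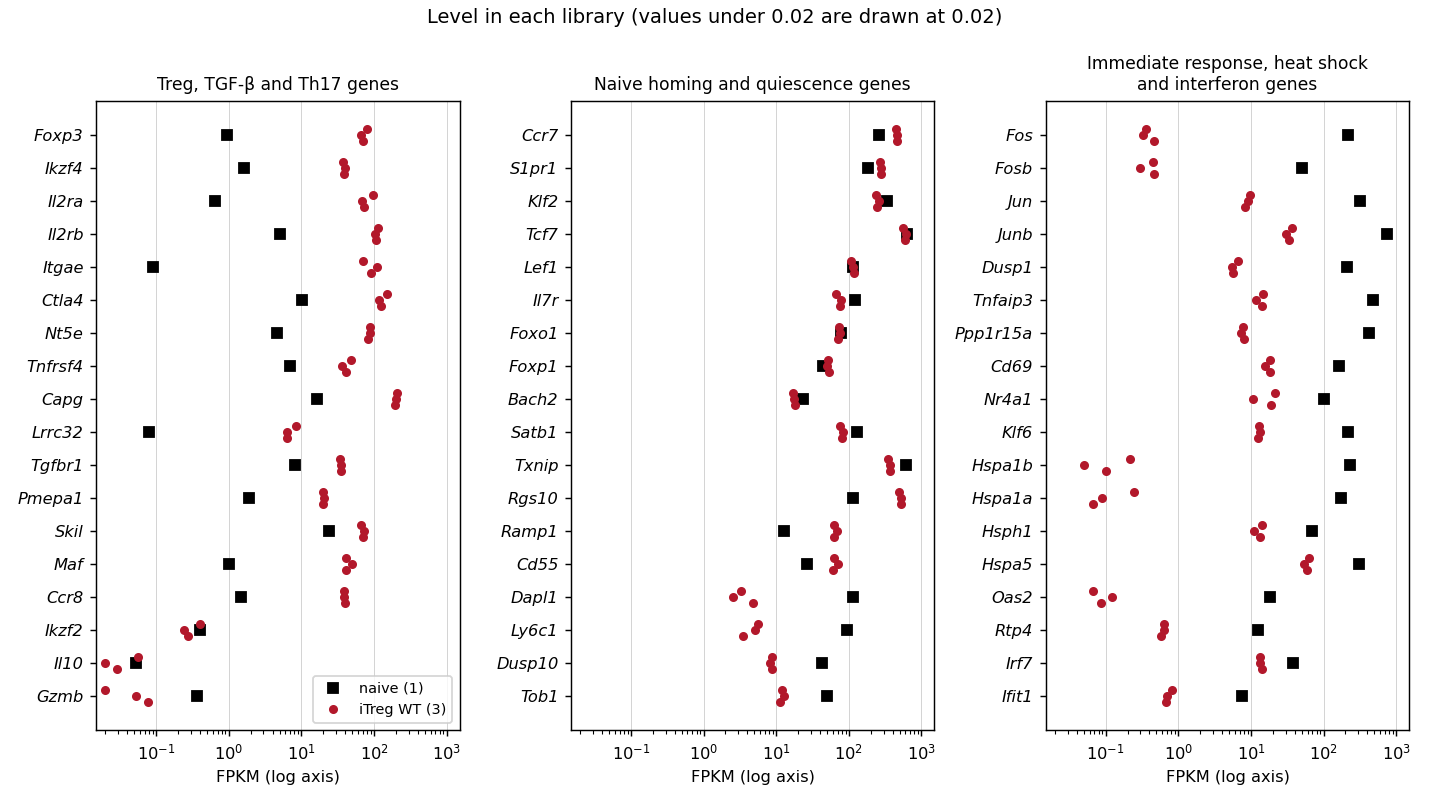
Level (FPKM, log axis) of 54 genes in the naive library (black squares) and in each iTreg WT library (red circles). Foxp3, Itgae and Il2ra lie far to the right of the naive library, the homing genes of the middle panel from Ccr7 to Bach2 overlap or lie close to it, and Fos, Hspa1b and Oas2 lie far to the left.

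Genes of the TGF-β pathway moved in both directions. Of 38 listed genes 26 were compared, 8 were called higher and 3 lower, with a median of 0.61 (0.30 with the median of all loci set to 0). Among the receptors, Tgfbr1, the signalling type I chain, was at 8.11 FPKM in the naive library and 34.7, 35 and 34.4 FPKM in iTreg WT 1, 2 and 3. Tgfbr2, the ligand-binding type II chain, was at 87.7 against 139.6, 137 and 122 FPKM and was not called, and the co-receptor Tgfbr3 was lower, at 20 against 6.36, 6.01 and 5.76 FPKM. The activin receptor gene Acvr2a went from 1.7 to 8.35 ± 0.329 FPKM.

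The signal transducer genes were not called. Smad2, Smad3 and Smad4 were at 6.07, 13.4 and 33.6 FPKM in the naive library and at means of 5.82 ± 0.322, 12.8 ± 0.378 and 32.9 ± 0.687 FPKM (SD, n = 3) in iTreg. Their feedback genes split. Pmepa1, an inhibitor induced by the pathway, was at 1.89 FPKM in the naive library and 19.7, 20.4 and 20 FPKM in iTreg WT 1, 2 and 3. D18Ertd653e, listed as Ldlrad4, another inhibitor of SMAD activation, was at 5.45 against 84.1, 88.8 and 80.6 FPKM. Skil, the SnoN co-repressor, was at 23.6 against 71.4, 71.7 and 66.7 FPKM, and Ski was not called, at 47.2 against 97.9, 95.2 and 92.2 FPKM. Smad7, the inhibitory SMAD, was already at 74.7 FPKM in the naive library and stayed at 66.7, 69.9 and 63.6 FPKM in iTreg, against 3.48, 3.72 and 27.9 FPKM in Th1, Th2 and Th17.

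Of the genes that handle the ligand, Lrrc32 and Furin rose. Lrrc32, which encodes GARP, the surface anchor of latent TGF-β, was at 0.0805 against 6.4, 6.23 and 8.49 FPKM. Furin, the protease that cuts the precursor, went from 10 to 33.1 ± 2.13 FPKM. Tgfb1 itself was at 41.6 against 74.6, 71 and 76.1 FPKM and was not called. Of the Id genes, inhibitors of E proteins, Id2 fell (60.6 against 18.7, 16.9 and 15.2 FPKM) and Id3 was not called (30.3 against 47.4, 44.8 and 48.6 FPKM).

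In the IL-2 and STAT5 pathway 7 of 21 compared genes (23 listed) were called higher and 1 lower. The list median was 0.21, and −0.09 with the median of all loci set to 0, so its sign turned. Il2rb, the β chain shared by the IL-2 and IL-15 receptors, was at 5.13 FPKM in the naive library and 107, 104 and 114 FPKM in iTreg WT 1, 2 and 3. The common γ chain Il2rg was abundant in both, at 289.9 against 258, 238 and 272 FPKM. Stat5a went from 20.8 to 49.2 ± 1.89 FPKM, while Stat5b, at 49.1 against 78.4, 80.2 and 77.9 FPKM, was not called. Of the STAT5 target genes that feed back on cytokine signalling, Socs2 went from 0.0831 FPKM to 15.8, 17.5 and 21.1 FPKM and Cish from 6.18 to 30.3 ± 2.51 FPKM, and Socs1 and Socs3 were not called. The kinase gene Pim1 was lower, at 139 against 54.8, 49.1 and 62.5 FPKM. Il2 was under 1 FPKM in all 4 libraries. Il7r, the receptor chain that resting T cells use for survival, was at 122 against 75.4, 78 and 67.3 FPKM and was not called.

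Most naive homing and quiescence genes were not called, but more were lower than among all loci. All 55 listed genes were compared, and 40 were not called, 4 were higher and 11 lower (20%, against 3.07% of all compared loci), with a median of −0.13. With the median of all loci set to 0 there were 17 lower and 3 higher. Ccr7, the chemokine receptor that guides cells into lymph nodes, was at 262 FPKM in the naive library and 454, 459.6 and 447 FPKM in iTreg WT 1, 2 and 3, and S1pr1, which guides them out, at 182 against 277, 276 and 271 FPKM. Neither was called, and all 3 iTreg libraries were above the naive one for both genes.

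The transcription factor genes of the naive state were close to their levels in the naive library too. Tcf7 was at 635 against 585, 605 and 555 FPKM, Lef1 at 114 against 117, 114 and 108 FPKM and Foxo1 at 77.5 against 71.6, 75.2 and 73.3 FPKM. For Lef1 the groups overlapped. Klf2, which drives S1pr1, was at 336 against 242, 261 and 235 FPKM. In the helper cultures Klf2 was at 24.5, 35.1 and 86.5 FPKM and S1pr1 at 30, 7.05 and 106 FPKM. Bach2, the repressor the study is built on, was at 23.4 against 17.9, 17.7 and 17.2 FPKM, and was at 26.2, 24.1 and 64.6 FPKM in Th1, Th2 and Th17.

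A smaller group of the same list did fall. Dapl1, a marker gene of naive T cells, was at 114 FPKM in the naive library and 4.79, 2.53 and 3.25 FPKM in iTreg WT 1, 2 and 3. The Ly6c1 and Ly6c2 genes, which encode the Ly-6C surface antigen, went from 94.8 to 4.77 ± 1.12 and from 10.8 to 1.47 ± 0.212 FPKM, with 25.4% and 27.3% of the 50-base windows of their transcripts also found elsewhere in the genome. The antiproliferative genes Tob1 and Tob2 went from 50.1 to 12 ± 0.774 and 54.5 to 13.6 ± 0.606 FPKM, the MAP kinase phosphatase gene Dusp10 from 42.8 to 8.6 ± 0.271 FPKM, and Tsc22d3 (GILZ) from 195 to 59.8 ± 2.27 FPKM. The members that rose were Rgs10 (113 to 511 ± 17.7 FPKM), Ramp1 (12.9 to 64.6 ± 3.66 FPKM), the sialyltransferase gene St6gal1 (45.1 to 132 ± 5.4 FPKM) and the complement regulator gene Cd55 (26.5 to 64.4 ± 5.16 FPKM).

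The T cell receptor machinery itself was steady: of 32 listed genes, all compared, 30 were not called. The exceptions were Ubash3b, a phosphatase that damps receptor signalling (STS-1), at 6.83 against 36.1, 33.9 and 32.5 FPKM, and Trat1, a receptor-associated adaptor, at 63.9 against 22.7, 25.6 and 24.8 FPKM.

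The fall that stood out was among immediate response genes, which are induced within minutes of a stimulus. Of 36 compared genes (40 listed) 22 were called lower, 5 of them with under 2 FPKM in iTreg, and 4 higher, with a median of −1.84, and 24 were lower with the median of all loci set to 0. The list median over all 40 genes was 43.3 FPKM in the naive library and 13, 9.88 and 11.6 FPKM in iTreg. In Th1, Th2 and Th17 it was 24.4, 26.8 and 17.8 FPKM, also under the naive one. Fos, a subunit of the AP-1 factor (mm9, chr12:86814851-86818219), was at 219 FPKM in the naive library and 0.469, 0.324 and 0.359 FPKM in iTreg WT 1, 2 and 3, a difference of −7.96 ± 0.121. The deposited interval of the naive value was 215 to 222 FPKM. Fosb was at 49.9 against 0.469, 0.298 and 0.449 FPKM, Jun at 317 against 8.2, 8.97 and 9.58 FPKM and Junb at 737 against 33, 29.9 and 36.3 FPKM. The groups were far apart for each of these AP-1 genes, and Jund went from 202 to 74.8 ± 3.66 FPKM. In Th1, Th2 and Th17, Fos was at 4.74, 5.92 and 4.57 FPKM and Jun at 16.9, 8.82 and 18.1 FPKM. Junb was higher there, at 200, 225 and 147 FPKM.

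Other genes of the response also fell, several feedback inhibitors among them. Tnfaip3, which encodes A20, an inhibitor of NF-κB, was at 484 FPKM in the naive library and 14.1, 11.7 and 14.8 FPKM in iTreg WT 1, 2 and 3. Ppp1r15a (GADD34), which restores translation after stress, was at 423 against 7.89, 7.32 and 7.81 FPKM. Dusp1, a MAP kinase phosphatase, was at 210.4 against 5.71, 5.49 and 6.56 FPKM. The NF-κB inhibitor gene Nfkbia went from 186 to 57.5 ± 7.54 FPKM, the mRNA decay factor gene Zfp36 from 248 to 33.4 ± 1.43 FPKM and Klf6 from 217 to 12.8 ± 0.362 FPKM. Cd69, an early activation marker that also holds cells in lymphoid tissue, was at 164 against 18.4, 15.4 and 18.2 FPKM. Nr4a1 (Nur77), a reporter gene of receptor signals, was at 100 against 19.1, 10.8 and 21.5 FPKM. In Th1, Th2 and Th17, Tnfaip3 was at 15.2, 22.3 and 16.7 FPKM, Ppp1r15a at 18.2, 18.8 and 10.6 FPKM and Dusp1 at 5.31, 9.96 and 4.32 FPKM. Cd69 was at 37.7, 12.4 and 24.9 FPKM there, and Nr4a1 at 82.3, 71.6 and 74.2 FPKM.

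A few genes of the list went the other way. The phosphatase gene Dusp4 and the receptor-signal inhibitor Spry1 went from 4.34 to 25.1 ± 2.94 and from 2.19 to 13.9 ± 1.54 FPKM, and Rgs1 from 27.1 to 85.8 ± 3.85 FPKM. Cd83 was at 0.0751 against 9.32, 2.54 and 6.77 FPKM and had the order of the B cell markers over the iTreg libraries. Myc, a regulator of cell growth, was at 42.6 against 23.6, 22.1 and 27.7 FPKM and was not called, nor were Egr2, Egr3, Rel and Nfkb1.

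Among all AP-1, BATF and IRF factors 11 of 24 compared genes (29 listed) were called lower and 5 higher, 6 of the 11 being the Fos and Jun genes of the immediate response list. The small Maf genes split, with Maff at 29.6 against 1.11, 1.21 and 1.24 FPKM, Mafk at 63 against 18.6, 18.1 and 17 FPKM and Mafg at 3.27 against 10.9, 12.5 and 10.5 FPKM. Batf, a partner of IRF4, was not called (18.7 against 12.7, 11.4 and 10.9 FPKM), and Irf4 went from 4.72 to 14.5 ± 2.67 FPKM. Irf8 and Irf5 went from 1.39 to 19.7, 17 and 25.9 FPKM and from 0.411 to 11.6, 5.62 and 9.51 FPKM. Both are also expressed in B cells, and Irf5 was lowest in iTreg WT 2.

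A cyclic AMP response element (TGACGTCA, its own reverse complement) was looked for in the 250 bases before the RefSeq start sites of the immediate response genes, a motif chosen after the values were seen. It was in 4 of 38 promoters of the list (10.5%), from 29 genes, and in 1.55% of all 32851 promoters of the same length. The windows of the 2 called genes with the motif and the farthest falls, Ppp1r15a (GRCm38.p6, chr7:45526269-45526518, minus strand) and Dusp1 (GRCm38.p6, chr17:26508473-26508722, minus strand), are shown with the element in capitals. Both genes were over 100 FPKM in the naive library and under 10 FPKM in iTreg.
Ppp1r15a: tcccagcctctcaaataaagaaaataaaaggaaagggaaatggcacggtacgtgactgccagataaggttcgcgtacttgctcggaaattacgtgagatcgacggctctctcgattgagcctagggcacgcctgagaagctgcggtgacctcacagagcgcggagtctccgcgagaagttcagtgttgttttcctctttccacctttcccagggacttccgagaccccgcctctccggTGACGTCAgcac
Dusp1: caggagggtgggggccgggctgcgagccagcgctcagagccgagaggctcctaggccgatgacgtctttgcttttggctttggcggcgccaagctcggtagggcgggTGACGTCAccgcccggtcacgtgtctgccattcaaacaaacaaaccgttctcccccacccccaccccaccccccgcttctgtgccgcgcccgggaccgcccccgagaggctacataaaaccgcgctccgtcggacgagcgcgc

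Heat shock genes fell in part. Of 30 compared genes (31 listed) 9 were called lower and 0 higher, with a median of −0.43. Hspa1b, an inducible HSP70 gene (mm9, chr17:35093374-35096183), was at 234 FPKM in the naive library and 0.102, 0.0495 and 0.217 FPKM in iTreg WT 1, 2 and 3 (−8.56 ± 0.195). By the smallest of the 3 differences, −8.35, Hspa1b fell farthest among the ranked loci of at least 10 FPKM, with predicted genes left out. Its near copy Hspa1a was at 176 against 0.0664, 0.0875 and 0.242 FPKM. Th1, Th2 and Th17 had 0.5, 0.641 and 0.316 FPKM of Hspa1b and 0.412, 0.626 and 0.277 FPKM of Hspa1a. Since 62.3% and 61% of their 50-base windows occur elsewhere in the genome, and only uniquely placed reads were used, the split between these copies is uncertain. The co-chaperone gene Dnajb1 went from 109 to 25.7 ± 0.842 FPKM, the HSP110 gene Hsph1 from 69.7 to 12.8 ± 1.56 FPKM and the endoplasmic reticulum chaperone gene Hspa5 (BiP) from 305 to 58.3 ± 5.34 FPKM. Constitutive chaperones were mixed. Hsp90ab1, an HSP90 gene, fell (673 against 248, 226 and 282 FPKM), whereas the HSC70 gene Hspa8 was not called (539.8 against 309.6, 284 and 350.4 FPKM), nor were the chaperonin genes Cct2, Cct3, Cct5, Cct8 and Tcp1. A heat shock element was written as TTC, GAA and TTC with any 2 bases between them and searched on both strands. It was in 4 of 35 promoters of the list (11.4%), from 26 genes, and in 0.466% of all promoters. None of the 3 genes that hold it was called.

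Interferon-induced genes were also lower in iTreg. Of 36 compared genes (40 listed) 18 were called lower and 1 higher, with a median of −1.01. For 10 of the 18 the iTreg mean was under 2 FPKM, so they were compared through the naive library alone. Oas2, a sensor of double-stranded RNA, was at 18.3 FPKM in the naive library and 0.0864, 0.123 and 0.0674 FPKM in iTreg WT 1, 2 and 3. Oas3, Oasl1 and Oasl2 of the same family went from 6.41 to 0.386 ± 0.0624, 4.72 to 0.128 ± 0.113 and 4.17 to 0.387 ± 0.0749 FPKM. Irf7, the factor that amplifies type I interferon, was at 38.3 against 14.2, 13.4 and 13.5 FPKM, and Bst2 (tetherin) at 41.7 against 10.7, 8.67 and 12.2 FPKM.

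The interferon-induced GTPase genes went several ways. Gbp3 was higher, at 2.32 against 11.5, 9.29 and 13.4 FPKM, and Gbp2, not called, at 19.6 against 36.7, 29.7 and 43.9 FPKM, while Gbp6 was lower, at 18.4 against 4.34, 3.63 and 5.12 FPKM. Igtp, Irgm1 and Irgm2 were not called, with Igtp at 55.7 against 60.6, 49.9 and 75.7 FPKM. Irf1 was lower, at 147 against 46, 37.3 and 49.3 FPKM.

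An interferon-stimulated response element, written here as GAAA followed by any 2 bases and GAAA, was searched on both strands after the values were seen. It was in 16 of 37 promoters of the list (43.2%), from 30 genes, and in 2.98% of all promoters. The windows of Oas3 (GRCm38.p6, chr5:120777660-120777909, minus strand) and Ifit1 (GRCm38.p6, chr19:34640639-34640888, plus strand), the called genes with the motif whose falls were farthest, are shown with the matches in capitals, on the reverse strand in Ifit1. Ifit1, whose product binds viral RNA, was at 7.47 against 0.68, 0.702 and 0.806 FPKM, and Oas3 at 6.41 against 0.427, 0.314 and 0.417 FPKM.
Oas3: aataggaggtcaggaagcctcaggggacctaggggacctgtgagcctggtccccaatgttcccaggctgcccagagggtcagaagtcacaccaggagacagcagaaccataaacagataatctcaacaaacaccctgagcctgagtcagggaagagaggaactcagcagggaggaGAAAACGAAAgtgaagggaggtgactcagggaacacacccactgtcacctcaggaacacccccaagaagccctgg
Ifit1: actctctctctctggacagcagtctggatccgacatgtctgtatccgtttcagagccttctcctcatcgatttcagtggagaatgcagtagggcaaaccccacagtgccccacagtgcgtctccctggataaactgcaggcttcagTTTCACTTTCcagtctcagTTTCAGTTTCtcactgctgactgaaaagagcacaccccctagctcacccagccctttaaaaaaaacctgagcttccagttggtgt

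Activation receptors included both rises and falls. Of 34 compared genes (40 listed) 14 were called higher, 5 of them with under 2 FPKM in the naive library, and 3 lower, with a median of 0.85. Higher calls outnumbered lower ones among all compared loci too (1269 and 296), and with the median of all loci set to 0 the list had 11 higher and 5 lower. Pdcd1, which encodes PD-1, was at 0.997 FPKM in the naive library and 18.3, 16.2 and 22 FPKM in iTreg WT 1, 2 and 3. The costimulatory receptor Icos went from 10.6 to 48.1 ± 1.68 FPKM and the adhesion receptor Cd44 from 6.4 to 15.7 ± 0.854 FPKM, a gene whose product the sort excluded in the naive cells. Lymphotoxin α (Lta) went from 11.4 to 55.5 ± 4.83 FPKM, whereas Tnf (8.94 against 2.95, 2.1 and 3.66 FPKM) and Fasl (6.1 against 0.714, 0.613 and 1.08 FPKM) fell. Tfrc and Slc3a2, nutrient receptor genes of dividing cells, were not called.

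Of the chemokine receptors and integrins 10 of 25 compared genes (36 listed) were called higher and 1 lower. For 7 of the 10 the naive library was under 2 FPKM, so they had to differ, and with the median of all loci set to 0 there were 7 higher and 4 lower. Ccr6, a receptor of Th17 and regulatory T cells, was listed at 0 in the naive library and at 26.2, 22.4 and 30.6 FPKM in iTreg. It was at 0.166, 0 and 17.4 FPKM in Th1, Th2 and Th17. Cxcr5 went from 0.278 to 9.89, 7.17 and 8.87 FPKM and Selplg, the selectin ligand gene, from 138 to 292 ± 2.86 FPKM. Gpr183 (EBI2), an oxysterol receptor that positions cells in lymphoid tissue, fell from 55.2 to 3.46, 2.64 and 3.23 FPKM. The partner of the αE chain, Itgb7, did not move, at 222 against 218, 219.8 and 219.8 FPKM.

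Genes of the Th17 lineage rose in part. Of 13 compared genes (21 listed) 7 were called higher and 0 lower, 6 of them with under 2 FPKM in the naive library. Maf, a factor shared by Th17, Th2 and regulatory cells, was at 0.998 against 40.7, 49.1 and 40.5 FPKM, with 2.56, 0.959 and 159 FPKM in Th1, Th2 and Th17. Il17f was listed at 0 in the naive library and at 11.4, 9.16 and 8.67 FPKM in iTreg, while the Th17 library had 668 FPKM. Il17a stayed near 1 FPKM in iTreg (0.72, 1.3 and 0.957), and Il21, Il22 and Il23r were at or near 0.

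The Th1 and Th2 lists were mixed. Of 13 compared Th1 genes (21 listed) 4 were higher and 4 lower. Ifng was lower, at 2.6 against 0.0315, 0 and 0.0615 FPKM, and the lineage factor gene Tbx21 was under 1 FPKM in all 4 libraries. Runx3 went from 17.8 to 3.63 ± 0.437 FPKM and Il18r1, a chain of the IL-18 receptor, from 18.3 to 53.6 ± 2.91 FPKM. Of 8 compared Th2 genes (21 listed) 3 were higher, Maf, Ccr4 and Ccr8, and Nfil3 was lower. Each of these calls came through 1 group alone, with the other under 2 FPKM, as did 2 of the 4 in each direction among the Th1 genes. Gata3, the Th2 factor, was at 19.5 against 8.96, 9.77 and 8.75 FPKM and was not called, since iTreg WT 2 missed the 2-fold limit, and Il4 was at most 0.081 FPKM.

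Among effector and cytotoxic genes 10 of 23 compared (36 listed) were called higher and 3 lower, and 6 of the 10 had under 2 FPKM in the naive library and so had to differ. Ctsw, a lysosomal protease gene, was at 30.1 FPKM in the naive library and 372, 375 and 346 FPKM in iTreg WT 1, 2 and 3. The helper cultures had 38.9, 3.2 and 182 FPKM. Xcl1, which encodes lymphotactin, was at 0.402 against 42.1, 37.3 and 55.3 FPKM and Ahnak, a large scaffold protein gene, at 4.44 against 43.7, 48.6 and 46.6 FPKM. The calcium-binding protein genes S100a4 and S100a6 went from 0.203 to 6.08 ± 1.34 and 0.0573 to 5.76 ± 1.37 FPKM. Prf1 (perforin) and Ly6a (Sca-1) fell, from 7.15 to 2.47 ± 0.222 and from 53.8 to 15.9 ± 2.08 FPKM.

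Cell cycle genes rose from near 0 to low levels. Of 30 compared mitosis genes (36 listed) 24 were called higher and 0 lower, with a median of 2.34, but 23 of the 24 had under 2 FPKM in the naive library and so had to differ. Mki67, the proliferation marker, was at 0.403 FPKM in the naive library and 8.89, 9.89 and 9.72 FPKM in iTreg WT 1, 2 and 3. Top2a, the topoisomerase of dividing cells, was at 0.997 against 15.3, 15.9 and 16.8 FPKM, and Ube2c, a ubiquitin-conjugating enzyme of mitotic exit, at 0.323 against 11, 13 and 12.2 FPKM. In Th1, Th2 and Th17 the values were 109.6, 166 and 99.3 FPKM for Mki67 and 212, 260.0 and 153 FPKM for Top2a. The list median over all 36 genes was 0.349 FPKM in the naive library, 3.7, 4.03 and 4.16 FPKM in iTreg, and 38.5, 46.5 and 26.7 FPKM in the helper cultures. The iTreg libraries thus lay between the naive and the helper libraries for this list.

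The promoters of mitosis genes often hold CCAAT boxes and the cell cycle homology element TTTGAA. Searched on both strands after the values were seen, CCAAT was in 24 of 32 promoters of the list (75%), from 30 genes, against 33.8% of all promoters. TTTGAA was in 14 of 32 (43.8%) against 16% of all. The 2 called genes with a CCAAT box and the farthest rises are shown, with matches of both motifs in either direction in capitals, Ube2c (GRCm38.p6, chr2:164769679-164769928, plus strand) and Top2a (GRCm38.p6, chr11:99024190-99024439, minus strand). Each held 6 matches to CCAAT, overlapping ones included.
Ube2c: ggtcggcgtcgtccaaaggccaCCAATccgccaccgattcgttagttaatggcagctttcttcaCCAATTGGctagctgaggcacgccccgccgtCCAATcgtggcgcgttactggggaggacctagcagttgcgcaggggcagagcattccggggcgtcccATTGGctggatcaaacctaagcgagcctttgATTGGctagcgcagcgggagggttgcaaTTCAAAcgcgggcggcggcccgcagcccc
Top2a: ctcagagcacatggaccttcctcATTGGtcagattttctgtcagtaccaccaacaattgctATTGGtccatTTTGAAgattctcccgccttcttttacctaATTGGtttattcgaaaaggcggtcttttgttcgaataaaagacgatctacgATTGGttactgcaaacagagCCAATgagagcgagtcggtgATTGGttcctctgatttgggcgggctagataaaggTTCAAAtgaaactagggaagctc

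Of 33 compared DNA replication genes (41 listed) 12 were called higher and 1 lower, with a median of 0.57. For 7 of the 12 the naive library was under 2 FPKM, so they had to differ, and with the median of all loci set to 0 there were 8 higher and 2 lower, at a median of 0.26. Rrm2, a subunit of ribonucleotide reductase, was at 1.53 against 9.94, 10.3 and 11.7 FPKM, and the helicase subunit gene Mcm6 went from 17.9 to 48.2 ± 3.52 FPKM. Cdt1, which licenses origins, was the member that fell, at 22 against 6.92, 7.3 and 8.83 FPKM. Pcna and the cyclin gene Ccnd2 were not called, at 96.8 against 56.8, 51 and 60.9 FPKM and 59.1 against 27.6, 23.8 and 30.1 FPKM. Replication-dependent histone genes did not rise, with 2 of 8 compared called lower (6 under quantile normalization).

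Most metabolic genes were not called. Of 29 compared glycolysis and hypoxia genes (32 listed) 6 were higher (20.7%, against 13.2% of all loci; 3 genes under quantile normalization), 4 of them with under 2 FPKM in the naive library, and 1 was lower, and the list median over all 32 genes was 11.5 FPKM in the naive library and 11.6, 11.5 and 11.3 FPKM in iTreg. The helper cultures had 146, 153 and 61.7 FPKM. Ldha, the lactate dehydrogenase gene, was at 144 against 147, 137 and 175 FPKM, and Pgk1, a glycolytic kinase gene, at 29.3 against 57.5, 51.3 and 65.5 FPKM with 1672, 1817 and 698 FPKM in Th1, Th2 and Th17. Eno1 was called higher and Gapdh lower, but 72.2% and 85.6% of their 50-base windows occur elsewhere in the genome, so both are uncertain. Of 30 compared genes of cholesterol and fatty acid synthesis (35 listed) 2 were higher (6.67%) and 1 was lower, with 0 higher under each of the 3 other scalings. Of 33 compared amino acid and ATF4 genes (42 listed) 0 were higher and 2 lower, the stress factor gene Atf4 itself (167 against 43.7, 40.4 and 45.6 FPKM) and the glutamine transporter gene Slc38a2. The medians of these 3 lists, 0.19, 0.06 and 0.02, turned negative with the median of all loci set to 0.

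**Figure D4:**
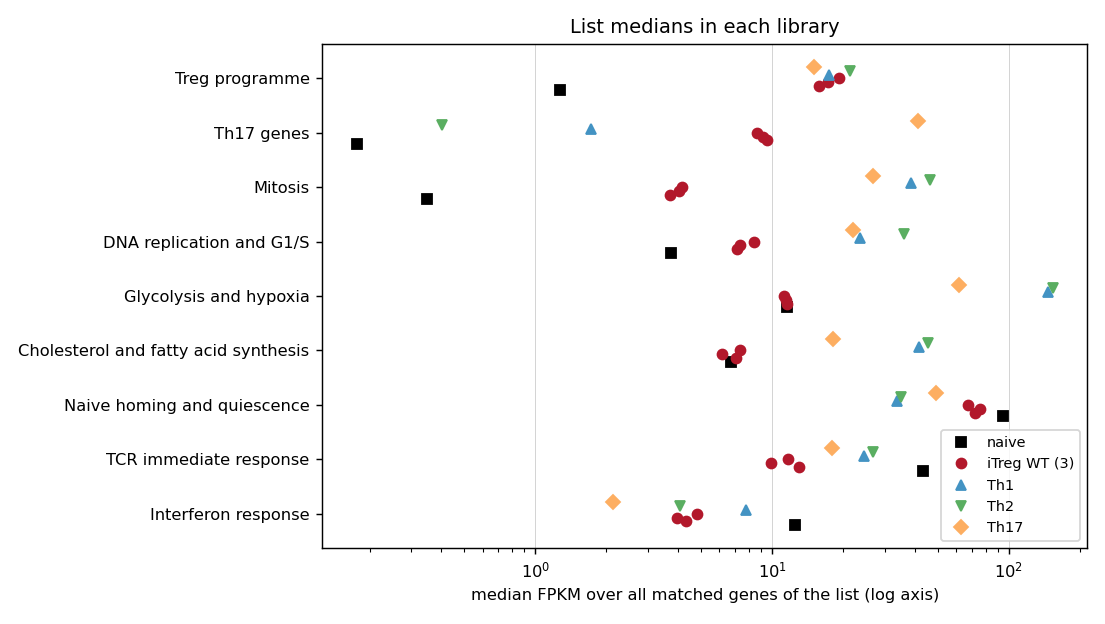
Median FPKM (log axis) over all matched genes of 9 lists in the naive library (square), the 3 iTreg WT libraries (circles) and the single Th1, Th2 and Th17 libraries. For glycolysis and for cholesterol synthesis the iTreg libraries lie on the naive one, at 11.3 to 11.6 against 11.5 FPKM and 6.13 to 7.29 against 6.70 FPKM, with the helper libraries to the right.

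Ribosome biogenesis genes and Myc targets were not raised: 51 of 52 compared (53 listed) were not called, and the single call was Mxd4, a Myc antagonist, which went from 34.1 to 136 ± 4.41 FPKM. In all 3 iTreg libraries 13 were above the naive level and 26 below it. The list median was −0.27, against 0.30 over all compared loci. With the median of all loci set to 0 it was −0.57, with 5 lower and 1 higher. Of 48 oxidative phosphorylation genes 42 were above the naive level in all 3 iTreg libraries, as were 66.6% of all compared loci, and 4 were called higher (8.33%, against 13.2%). Their median of 0.48 was 0.18 with the median of all loci set to 0, and 2 were then called. Of the 4, Atp5h and Cox5b are uncertain, with 59.6% and 62.7% of their 50-base windows found elsewhere in the genome. For Ndufb2 and Ndufab1 the shares were 5.6% and 12.6%. Ribosomal protein genes scattered, with 14 of 56 called higher and 4 lower. Rps29 went from 78.5 to 1159.8 ± 30 FPKM and Rpl34 from 128 to 1085 ± 54.7 FPKM, while Rpl29 went from 425 to 41.9 ± 1.68 FPKM and Rpl7a from 139.7 to 23.1 ± 2.99 FPKM. The helper cultures lay on the iTreg side. In Th1, Th2 and Th17, Rps29 was at 1199, 1182 and 979 FPKM and Rpl34 at 1430, 1445 and 978 FPKM. Rpl29 was at 49.5, 59.6 and 32.4 FPKM and Rpl7a at 34.1, 28 and 20.5 FPKM. These genes have many processed copies, and the median share of their 50-base windows found elsewhere in the genome was 52.2% against 0% over 151 other genes checked. Over the 19 ribosomal genes with a mean difference of at least 1 in either direction the median share was 57.6%, and over the other 37 it was 50.7%. Rps29, Rpl34, Rpl29 and Rpl7a had shares of 76%, 44.7%, 86% and 93.1%. Rpl24, called higher at 90.8 against 314, 308 and 324 FPKM in iTreg WT 1, 2 and 3, had 0%. The part of the copies in these calls was not tested. Ndufs5, a complex I subunit gene, was among the 12 farthest rises. It was near 0 in the naive library and at 29, 27.2 and 28.3 FPKM in iTreg. With 49.8% of its windows found elsewhere, it is uncertain. In Th1, Th2 and Th17 Ndufs5 was at 29.7, 18.9 and 36.9 FPKM.

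Death and survival genes of the BCL-2 family were called higher in 6 of 24 compared members (27 listed; 25%, against 13.2% of all loci) and lower in 1, and quantile normalization gave 3 and 2. The pro-death gene Bcl2l11 (BIM) went from 11.4 to 27 ± 0.842 FPKM, while the survival genes Bcl2 (21.1 against 26.7, 21.7 and 29.9 FPKM) and Mcl1 (176 against 144, 141 and 135 FPKM) were not called. Bcl2a1d was called higher but shares 79% of its windows with other loci.

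Some of the 12 farthest changes in each direction, ranked by the smallest of the 3 differences with predicted genes left out, lay outside these lists besides Xist and the Y-linked genes. Rgs16, a regulator of G protein signals, was at 0.533 against 42.5, 37.5 and 43.7 FPKM. Ctla2b, which encodes a cysteine protease inhibitor, was at 0.14 against 20.9, 23 and 22.8 FPKM. Apol9b was at 1.54 against 77, 74.6 and 66.8 FPKM, but 48.1% of its windows are shared with its neighbour Apol9a and other loci. Dtx1, a ubiquitin ligase of the Notch pathway, fell, at 48.9 against 0.414, 0.624 and 0.378 FPKM.

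**Figure D5:**
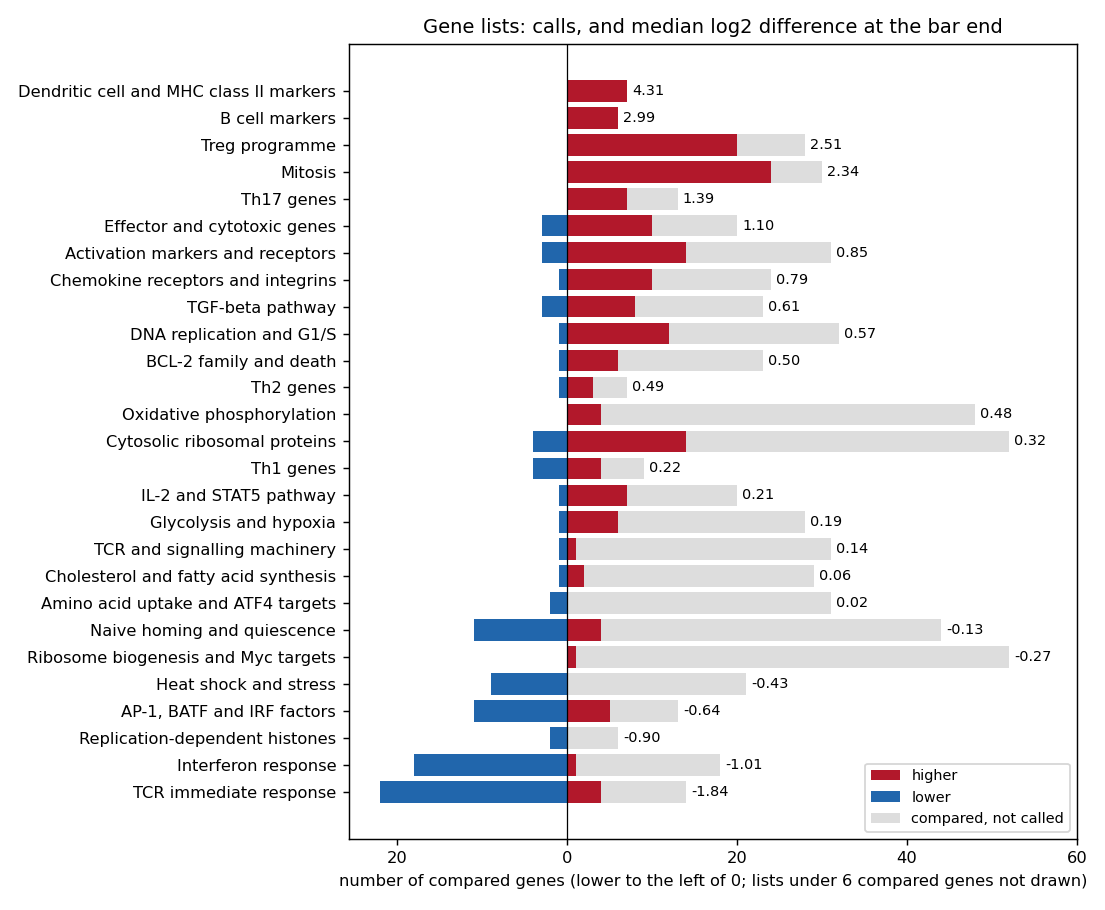
Number of compared genes called higher (red, to the right), lower (blue, to the left) and not called (grey) in each list with at least 6 compared genes, with the median log2 difference printed at the bar end. Marker lists of MHC class II and B cells, the regulatory programme and mitosis head the plot, and the immediate response and interferon lists are at its foot.

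Bach2 binding had been mapped by chromatin immunoprecipitation in wild-type iTreg cells, with 1 library and 22494 deposited peaks. A peak lay within 10 kb of 793 of the 1269 loci called higher (62.5%), of 194 of the 296 called lower (65.5%) and of 59.5% of those not called, with median locus lengths of 14.1, 11.4 and 21.7 kb. These shares lie near the 60.1% of all compared loci. Il2ra had 13 peaks, Foxp3 and Itgae 5 each, and Cd69 and Junb, which fell, also 5 each.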

How the data were processed

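Wild-type iTreg libraries (3) and the naive library (1) were RNA-seq libraries from 200 ng of total RNA, sequenced as 50 bp reads. The authors mapped only uniquely placed reads to mm9 with TopHat and computed one FPKM value per locus with Cufflinks, per the labels' protocols and the submitters' processing notes; for versions and gene models, nothing is given in the sources used here. The deposited FPKM files also give an interval for each value. The Bach2 peak list was deposited with positions, tag counts, fold enrichment (a ratio to the input), a score (a multiple of −log10 of the p-value) and a false discovery rate in percent, from MACS, per the file headers; peaks were mapped with Bowtie, per the submitters' processing notes, and only positions and fold enrichment were used.

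From the FPKM values, log2(FPKM + 0.5) differences were computed for the 9639 loci with at least 2 FPKM in a group and 300 bp in length. A call required a difference of at least 1 in each of the 3 iTreg libraries; there was no test, since 1 group has 1 library. Depth was derived from the deposited intervals of genes with a single start, 18.2 to 19.1 M reads. A symbol at several loci (472 repeat entries) took the locus with the highest mean. The 30 gene lists (885 distinct genes matched, 878 by symbol and 7 by RefSeq synonym, and 3 not matched) and the members were chosen with earlier results of these data known. Named genes were the 12 largest changes in each direction with at least 10 FPKM in a group (by the smallest of the 3 differences, leaving out microRNA, snoRNA and predicted genes and immunoglobulin or T cell receptor segments), up to 4 called genes per list and direction, and a fixed set of well-known genes; all others named were chosen after their values were seen. Promoters (the 250 bases before the start, GRCm38.p6) were from RefSeq, and those on chromosome 18 were left out when windows to show were picked. Windows of 50 bases of the longest coding transcript (GENCODE vM1) were matched exactly to the mm9 genome on both strands, and matches outside the gene's own span were counted. Calls were repeated with other pseudocounts, filters, scalings and subsets of libraries. Scripts (Python 3.11.15, numpy 2.4.6, pandas 2.3.3) were tested on simulated data. Bach2-deficient libraries were not used in the comparison. Values of some named genes are not reported here.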

Additional observations from a re-analysis of the deposited data

How the results depend on the processing

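No paired analysis was possible because the naive library carries no replicate number in its labels and the groups share fewer than 2 numbers. Against 1269 higher (13.2%) and 296 lower (3.07%) calls, the counts were 1423 and 310 with a pseudocount of 0.1, 1107 and 260 with 1, 971 and 246 with a filter of 5 FPKM, 1517 and 335 without a filter and 1355 and 327 without a minimum length. Scaling moved them most: 780 (8.09%) and 481 (4.99%) with the median difference set to 0, 691 (7.08%) and 548 (5.62%) under quantile normalization, and 872 and 427 with equal sums. Leaving out 1 iTreg library gave 1323 to 1349 higher and 303 to 312 lower. Chosen after seeing the data, leaving out chromosomes X and Y gave 1241 and 287, and leaving out loci at 0 in the naive library 1237 and 296. A difference of at least 2 left 3.57% and 0.934% of compared loci, and 1256 and 292 calls had deposited intervals apart from the naive one. Without a filter 13569 loci had the same direction in all 3 libraries, against 8866. The share of higher loci with a Bach2 peak was 48.5% within 2 kb, 85.5% within 50 kb and 48.9% for peaks of at least 10-fold enrichment, each near that of all compared loci (47.6%, 85.2% and 47.1%). None of the 134 called named genes changed direction in the 13 settings run. This says little, since a call needs a difference of at least 1 in each iTreg library, more than these settings shift most values. With 1 naive library, the biological spread of naive cells was not measured.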
